A study of Mus musculus with 4 samples.

Results

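Pancreatic polypeptide cells, the islet endocrine cells that make the hormone pancreatic polypeptide (gene Ppy), were taken from a single-cell RNA-seq matrix of mouse islets as the cells in which Ppy made up at least 2% of all transcripts and exceeded each of Gcg (glucagon), Sst (somatostatin) and Ins2 (insulin). The rule found 243 such cells among 16146 cells that had at least 500 genes detected and at most 20% of their transcripts from mitochondrial genes, of 19987 barcodes in the matrix. Transcripts were counted as UMIs, molecular tags that mark each captured RNA molecule once. Alpha cells, the glucagon-producing class used as the main comparison, were the 1997 cells with Gcg at 5% of UMIs or more and above Ppy, with Ins2 under 5% and Sst under 1%.

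The islets came from 5-week-old NOD mice, a strain that develops autoimmune diabetes. Of the 4 samples, 2 were labelled Xbp1{beta}-/-, a deletion of the transcription factor gene Xbp1 aimed at beta cells, and 2 were labelled Xbp1fl/fl, which carry the loxP-flanked gene without the deletion. Every group received tamoxifen as a 10 mg/ml solution, injected repeatedly into the peritoneum on consecutive days. No label names the promoter that drives the Cre recombinase. Islets were picked by hand, cultured overnight and dispersed with accutase, so each library holds cells that came through these steps. Barcodes carry a library number from 1 to 4 that no sample label names, and no library could be tied to a genotype. The values below are therefore given for each library, without a comparison of genotypes and without a test across libraries.

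Pancreatic polypeptide belongs to the neuropeptide Y family together with peptide YY (Pyy) and neuropeptide Y itself. It is released after meals and under vagal control, acts on the Y4 receptor and lowers pancreatic exocrine secretion and food intake. The cells that make it are a minor islet class, concentrated in the part of the pancreas that arises from the ventral bud.

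Ppy and Pyy are neighbours on the same strand, and both were at high levels in these cells, so the sequences before their start sites are shown. In GENCODE M21 (GRCm38), Ppy (ENSMUSG00000017316) occupies chromosome 11 from 102099930 to 102101319 on the minus strand, and Pyy (ENSMUSG00000017311) occupies 102106676 to 102107832 on the minus strand, with 5356 bases between them. The 150 bases upstream of the Ppy start and of 1 of the Pyy starts, from RefSeq on GRCm38.p6, read 5′ to 3′ as follows, with TATAA in capitals.
Ppy, chr11:102101320-102101469, minus strand: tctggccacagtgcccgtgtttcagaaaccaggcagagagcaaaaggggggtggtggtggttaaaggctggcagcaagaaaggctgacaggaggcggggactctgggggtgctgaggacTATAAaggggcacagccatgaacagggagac
Pyy, chr11:102107833-102107982, minus strand: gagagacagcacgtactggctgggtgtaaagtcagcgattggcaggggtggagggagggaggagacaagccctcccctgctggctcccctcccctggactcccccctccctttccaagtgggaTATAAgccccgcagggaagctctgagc
The first T of TATAA lay 31 bases before the Ppy start and 27 bases before this Pyy start. RefSeq holds another Pyy start, with its window at 102107777 to 102107926. The same TATAA lay 83 bases before that start. On the gene's own strand, TATAA occurred in 9.99% of 32851 RefSeq promoter windows of this length. The palindromic letters CANNTG, searched on both strands, occurred 0 times in the Ppy window and 1 time in the Pyy window, against 47.7% of all windows with at least 1. TAATNA, searched on both strands, was in neither window and in 14.6% of all windows. These matches describe letters in the window and not bound sites.

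Libraries 1 to 4 held 23, 99, 43 and 78 pancreatic polypeptide cells. Their shares of cells past the filter were 0.633% (exact binomial 95% interval 0.402 to 0.948), 1.88% (1.53 to 2.28), 1.24% (0.902 to 1.67) and 2.06% (1.63 to 2.56). Over only the cells in which at least 1 of the 4 hormones of the rule reached 2% of UMIs, the shares were 1.91%, 1.97%, 2.69% and 2.16%. Library 1 had the lowest share on the first denominator, and the 4 intervals overlapped on the second. Such intervals cover counting error only, and hand-picking of islets can set the share.

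The cells were deeper than alpha cells but not than all cells past the filter. Over all libraries the median was 21368 UMIs in polypeptide cells, 21328.5 in all cells past the filter, 17322 in delta and 40436 in beta cells. The median UMI count of polypeptide cells was 25702, 21606, 24428 and 19628 in libraries 1 to 4, against 11739, 12315, 12890 and 11165 in alpha cells. Median mitochondrial content ran from 1.93% to 2.38% of UMIs, against 3.38% to 3.81% in alpha cells. Polypeptide cells were thus deeper than alpha cells and lower in mitochondrial transcripts in each library. A total of 28 barcode sequences occurred in more than 1 library among cells past the filter, and 0 of them belonged to a polypeptide cell. No doublet caller was run, and the part of doublets in cells with several hormones was not tested.

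Xbp1 itself was measured in polypeptide cells at 127, 124, 151 and 135 CPM (UMIs of the gene relative to all UMIs of the class in that library, on the usual counts-per-million scale). In alpha cells it was at 148, 118, 123 and 116 CPM, and in beta cells at 46.7, 94.9, 42.7 and 95.8 CPM. Among polypeptide cells the 4 libraries lay within a narrow range, and no library was given a genotype from these values.

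By the rule, Ppy was above Gcg, Sst and Ins2 in every cell. Its median share was 25.4%, 25.6%, 24.9% and 26.9% of UMIs in libraries 1 to 4, with single cells from 2.29% to 51.0%. The rule used this value, so it describes the cells and supports nothing. Peptide YY was not part of the rule, and every one of the 243 cells held at least 1.35% of its UMIs as Pyy. Median Pyy shares were 9.51%, 11.9%, 8.79% and 11.5%. Across cells of a library, the shares of Ppy and Pyy had Spearman's rho of 0.596, 0.356, 0.280 and 0.425 (Pearson's r 0.609, 0.288, 0.212 and 0.385, over 23, 99, 43 and 78 cells). These cells share a library and the depth of each cell enters both shares.

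Median insulin transcripts in these cells varied by library as they did in endothelial cells, which are not known to make insulin. Median Ins2 was 0.0419%, 0.857%, 0.0700% and 0.433% of UMIs, and 1, 37, 2 and 10 cells reached 1%. Endothelial cells, defined by at least 3 endothelial markers and no hormone at 5%, had medians of 0.0522%, 1.39%, 0.0645% and 0.732% at median depths of 9976, 9254.5, 11566.5 and 7011.5 UMIs. The order of the libraries was the same in both types. Ins2 at 1% or more was found in 4.35%, 37.4%, 4.65% and 12.8% of polypeptide cells and in 0.613%, 61.4%, 1.74% and 25.6% of endothelial cells. The polypeptide share was below the endothelial one in libraries 2 and 4, where shares at 1% are therefore not read as expression. In libraries 1 and 3 it rested on 1 and 2 cells. Ins2 at 5% or more was found in 0, 3, 2 and 2 polypeptide cells, with a highest value of 13.8%. The endothelial class cannot be compared at that level, since its definition holds no cell with a hormone at 5%. Counting Gcg, Sst and Ins2 together, 26.1%, 53.5%, 25.6% and 42.3% of polypeptide cells held a second hormone at 1% or more, a figure that includes these Ins2 shares.

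Glucagon and somatostatin transcripts were near 0 in most cells and high in a few. Median Gcg was 0.0212%, 0.0750%, 0.0202% and 0.0413% of UMIs, yet 4, 18, 5 and 17 cells held 1% or more. This made 44 of 243 cells, or 18.1% (exact binomial 95% interval 13.5 to 23.5). Sst reached 1% in 1, 13, 5 and 9 cells, 28 in all or 11.5% (7.79 to 16.2). Among 527 endothelial cells, Gcg reached 1% in 0, which allows a share of up to 0.569% (3 cells of 527), and Sst reached it in 1. By definition the endothelial class holds no cell with a hormone at 5% or more, so the classes compare only below that level. Gcg was at 5% or more in 0 of the 4 cells of library 1 and in 15 of the 18 of library 2. The plot of hormone shares by cell shows the spread.

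**Figure D1:**
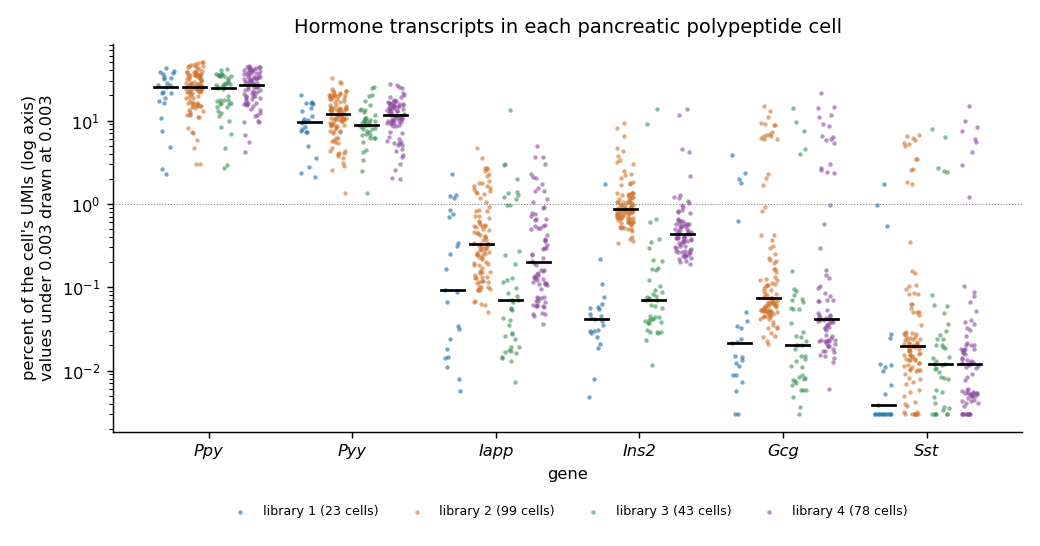
Percent of each cell's UMIs (log axis) from 6 hormone genes in the 243 pancreatic polypeptide cells, 1 point per cell, coloured by library, with a black bar at each library's median. Every cell holds at least 1.35% Pyy, Ins2 moves with the library, and 44 cells with Gcg and 28 with Sst lie above the dotted line at 1%.

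Few cells lay near the Ppy threshold, while more lay near the line between Ppy and the next hormone. Only 10 of the 243 cells had Ppy under 5% of UMIs, the lowest 2 being at 2.29% and 2.65%, and outside the rule a single cell had Ppy as its highest hormone at 1% to 2% (1.34%). A further 225 cells had Ppy at 2% or more but below another hormone, with Gcg highest in 106, Sst in 73 and Ins2 in 46. Ppy was above 5% in 79 of these. At the line itself, the ratio of Ppy to the next hormone was 1.01 in the nearest member and 0.998 in the nearest cell outside. In 33 of the 243 cells Ppy was less than 2 times the next hormone.

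Ppy transcripts were also frequent in alpha and delta cells. At 1% of UMIs or more, Ppy was found in 4.42%, 6.41%, 7.64% and 7.59% of alpha cells in libraries 1 to 4 (11, 48, 22 and 54 cells). Delta cells, the somatostatin class (Sst at 5% or more and above Ppy, Ins2 under 5%, Gcg under 1%), reached 12.3%, 12.2%, 16.3% and 11.4% (23, 50, 51 and 43 cells). Beta cells taken by Ins2 at 5% or more and with no limit on Ppy gave 0.365%, 0.636%, 1.17% and 0.372%, and 0 of 527 endothelial cells reached it, the highest being at 0.107%. In each library the share was highest in delta cells, followed by alpha cells, and the alpha and delta shares lay above those of beta and endothelial cells.

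**Figure D2:**
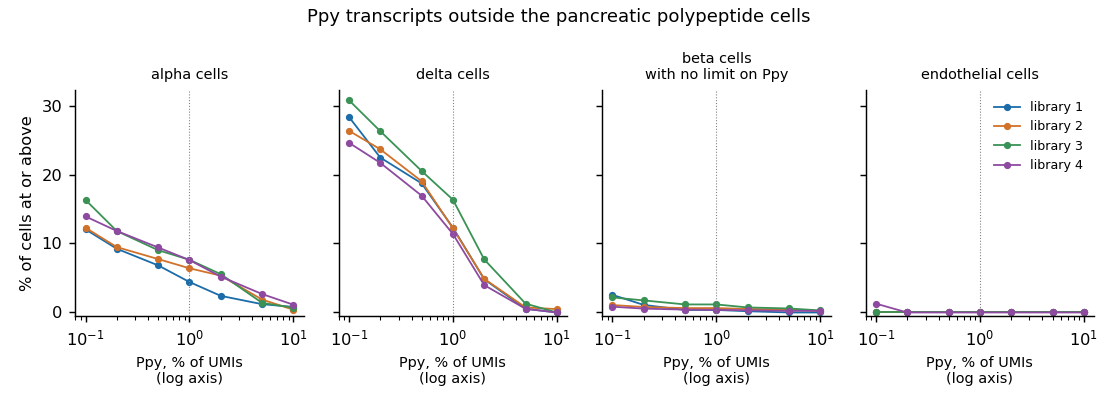
Share of cells (vertical axis, percent) with Ppy at or above a given percent of UMIs (horizontal axis, log scale) in alpha, delta, beta and endothelial cells, 1 line per library. At the dotted line of 1%, alpha cells lie between 4.42% and 7.64%, delta cells between 11.4% and 16.3%, and endothelial cells at 0.

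Of the 4 supplied marker genes beside Ppy, 3 were higher in polypeptide than in alpha cells and 1 was not. UMIs were summed over the cells of a class in each library, and the ratio was taken within the library as log2 of CPM plus 10, which understates the change of low genes. Pyy was at 108768, 131132, 104459 and 120301 CPM against 8249, 9107, 13691 and 10618 in alpha cells, a median log2 ratio of 3.61 over the 4 libraries. Folr1, the folate receptor alpha at the cell surface (chromosome 7, 101858331 to 101870788), was at 257, 259, 185 and 257 CPM against 13.9, 16.5, 18.1 and 17.3, with a median log2 ratio of 3.32. Tspan8, a tetraspanin of the plasma membrane (chromosome 10, 115816832 to 115849893), was at 767, 537, 610 and 708 CPM against 33.9, 24.9, 31.7 and 37.5, with a median log2 ratio of 3.94. For these 3 genes the lowest polypeptide library stood above the highest alpha library by several fold.

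Etv1, an ETS-family transcription factor, did not mark polypeptide cells off from alpha cells. It was at 266, 397, 298 and 305 CPM in polypeptide cells and at 361, 524, 416 and 481 CPM in alpha cells, with log2 ratios from -0.64 to -0.39. Its level in beta cells was 45.1, 10.3, 57.2 and 8.99 CPM, so that of the 3 other hormone classes it was at least 2-fold below polypeptide cells in beta cells only (median log2 ratio 3.19).

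The same markers were counted after each cell was thinned to 5000 UMIs, which left out 14 of the 243 polypeptide cells as too shallow. Folr1 then had a UMI in 61.9%, 66.7%, 61.5% and 61.8% of polypeptide cells (82.6%, 91.9%, 86.0% and 92.3% before thinning). Alpha cells gave 6.20% to 7.66%, and endothelial cells 0 to 0.680%. Tspan8 had a UMI in 85.7% to 94.9% of thinned polypeptide cells (91.3% to 97.4% before thinning), 8.05% to 11.3% of alpha cells and 20.5% to 35.0% of endothelial cells. The difference from alpha cells was thus present at equal depth in both genes. In thinned delta cells Folr1 had a UMI in 18.6% to 26.8% and Tspan8 in 51.5% to 66.6%. Etv1 did not differ in this way, with a UMI in 72.4% to 81.0% of polypeptide and 70.7% to 84.2% of alpha cells. Pyy had a UMI in 100% of polypeptide and 91.4% to 94.1% of alpha cells.

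Against alpha cells, 5518 genes had a mean of both classes of at least 20 CPM and entered the comparison, with the 4 hormones of the rule left out. A gene under 20 CPM in 1 class entered only through the class where it was higher, so the filter fixed its direction. At least 2-fold higher in each of the 4 libraries were 32 genes (0.58%), and 77 genes (1.4%) were at least 2-fold lower in each. The median gene had log2 ratios of -0.17, -0.23, -0.16 and -0.27. Transcripts of 8 hormone and carrier genes took 38.3%, 43.7%, 38.0% and 44.3% of the UMIs of polypeptide cells and 26.8%, 30.9%, 31.5% and 29.4% of those of alpha cells. With these 8 genes (Ppy, Pyy, Gcg, Sst, Ins1, Ins2, Iapp and Ttr) left out of the total, the median gene lay between -0.04 and 0.03, and 56 genes were higher and 72 lower. Ratios below are on the first scale, and small ones are to be read against its shift.

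Among the 12 genes with the largest ratios over alpha cells were surface, plasma-protein and immediate early genes. Depp1, a regulator of autophagy that FOXO factors induce, was at 145, 153, 210 and 220 CPM against 3.08, 2.43, 4.64 and 3.98 in alpha cells, a median log2 ratio of 3.81. Fgb, the fibrinogen beta chain that is best known from liver, was at 1247, 352, 751 and 624 CPM against 243, 106, 125 and 159 (2.11). Both genes were higher in every polypeptide library than in any alpha library. Cpb2, a plasma carboxypeptidase, had a median log2 ratio of 2.13 but was uneven, at 90.5, 18.6, 67.3 and 20.2 CPM. The other genes with large ratios were the uncharacterised 4930539E08Rik (2.32), the AP-1 subunit Jun (2.00), the glutathione transferase Gstm1 (2.00), the SNARE-binding protein Stxbp6 (1.92), the transcription factor Klf2 (1.89) and the sulfotransferase Sult1d1 (1.88).

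Genes with large ratios in the other direction included metabolic genes, transporters and alpha-cell factors. Higd1a, a mitochondrial inner-membrane protein, was at 23.5, 27.3, 25.4 and 37.0 CPM against 295, 287, 229 and 316 in alpha cells, a median log2 ratio of -2.89. Ttr, the thyroxine carrier transthyretin, was at 441, 1246, 595 and 750 CPM against 3626, 5331, 4596 and 5390 (-2.88). Irx1, an iroquois homeobox factor (chromosome 13, 71957921 to 71963723), was at 9.05, 5.91, 4.54 and 8.67 CPM against 78.5, 98.1, 79.8 and 97.0 (-2.57). In no library did polypeptide cells reach the alpha level of these 3 genes. Further down were the glutamine transporter Slc38a5 (-2.54), the growth-factor binder Igfbp4 (-2.49), the granule zinc transporter Slc30a8 (-2.47), the secreted granin Vgf (-2.40), the neurotrophic receptor Gfra3 (-2.38), Samd5 (-2.37), the amino acid transporter Slc38a4 (-2.32) and the matrix protein Tnr (-2.32).

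**Figure D3:**
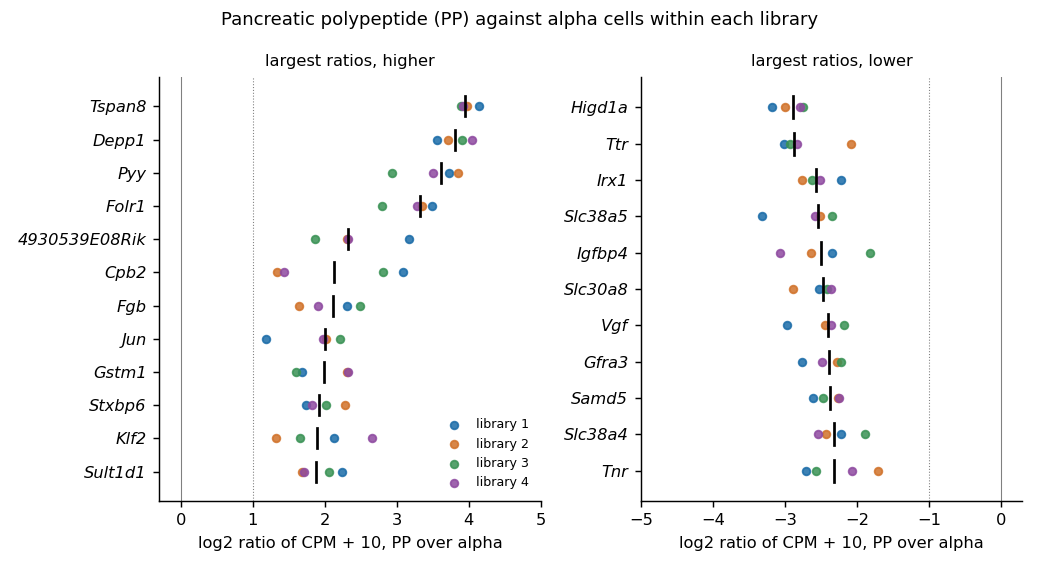
Log2 ratio of CPM plus 10, polypeptide over alpha cells, for genes with the largest median ratios in each direction among those past 2-fold in each library; points are the 4 libraries, black bars their medians, and dotted lines mark 2-fold. Ratios of Tspan8 and Folr1 lie close together over the libraries, and those of Cpb2 split between libraries 1 and 3 and libraries 2 and 4.

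Lower values in polypeptide cells also included transcripts tied to RNA handling. Gm42418 and AY036118, which overlap ribosomal RNA sequence, had median log2 ratios of -2.04 and -1.40, and Lars2 had -2.15. These were lower together with mitochondrial content, and their part in the other ratios was not tested. When all classes were limited to cells with at least 2500 genes and at most 5% mitochondrial UMIs, 30 genes were higher and 85 lower than in alpha cells.

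Alpha-cell transcription factors were in part lower in polypeptide cells. Of 7 alpha-cell factors, all past the filter, 4 were at least 2-fold lower in each library, among them Irx1, Irx2 and Pou3f4. At 2-fold 0 were higher, where 1.4% of all genes were lower and 0.58% higher. By any fold in every library 6 were lower and 1 was higher, where 48.2% and 10.7% of all genes were. The list median was -1.80. Irx2 was at 27.1, 25.4, 12.7 and 26.6 CPM against 114, 117, 98.4 and 115, and Pou3f4, a POU-domain factor, at 7.24, 4.09, 4.54 and 4.62 against 52.3, 51.4, 51.5 and 49.8. Every polypeptide library was below every alpha library for these 3 factors.

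Factors shared by all islet endocrine cells had a list median nearer to that of all genes. It was -0.41, against a median of all genes of -0.16 to -0.27. Of 14 measured pan-endocrine factors 0 passed 2-fold in every library. Of all genes 0.58% were higher and 1.4% lower, so a count of 0 says little. By any fold in every library 8 were lower and 0 higher, where 48.2% and 10.7% of all genes were. Neurod1, a basic helix-loop-helix factor, was at 232, 134, 174 and 125 CPM against 404, 413, 460 and 383 in alpha cells, and Isl1 at 192, 253, 222 and 271 against 206, 249, 218 and 241. Among 5 measured delta and beta factors, Nkx6-1, a homeobox factor of beta cells, was higher (45.2, 35.0, 47.3 and 27.2 CPM against 9.85, 12.1, 14.2 and 8.42, median log2 ratio 1.13). Pdx1, another homeobox factor, was under the filter at 18.1, 25.9, 60.0 and 29.5 CPM against 3.08, 3.06, 7.32 and 2.46. Neither factor reached its beta-cell level, which was 127 to 171 CPM for Nkx6-1 and 65.3 to 141 for Pdx1.

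Granule proteins went both ways against alpha cells. Of 11 measured hormone-processing genes 0 passed 2-fold, where 0.58% of all genes were higher and 1.4% lower. The 11 genes included the convertase Pcsk2 at 2967, 3648, 3327 and 3208 CPM against 4896, 5000, 5735 and 4663. The other convertase, Pcsk1, was nearly absent, at 0, 10.9, 12.7 and 11.6 CPM. Of 24 granule genes, the granins Chgb and Scg2 were higher and Vgf and Slc30a8 lower. Chgb was at 3412, 1367, 1871 and 1178 CPM against 588, 491, 656 and 478 (median log2 ratio 1.48), and Scg2 at 1482, 1464, 1725 and 1417 against 640, 577, 651 and 655 (1.26). Vgf was at 3.62, 20.9, 9.09 and 22.0 CPM against 97.0, 158, 76.4 and 155. The 2 granins that were higher and the 1 that was lower thus moved in opposite directions within the same list.

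Amino acid and glucose handling held the largest block of lower genes. Of 13 measured members 5 were lower and 0 higher, where 1.4% and 0.58% of all genes were. The list median was -1.02 (-0.79 with hormones left out of the total). The lower genes were the amino acid transporters Slc38a4, Slc38a5, Slc7a2 and Slc7a8 and the kinase Pdk4, which restrains pyruvate oxidation. Slc7a2, a carrier of cationic amino acids, was at 66.9, 78.6, 69.1 and 81.5 CPM against 332, 414, 417 and 373, and Slc38a5 at 1.81, 7.72, 11.8 and 4.62 against 107, 90.8, 101 and 77.3. Receptors and ion channels had 1 lower gene each and 0 higher, the vasopressin receptor Avpr1b among 10 (5.43, 15.4, 3.64 and 6.94 CPM against 45.6, 53.3, 46.9 and 46.9) and the calcium-release channel Itpr1 among 18. Gnas, the stimulatory G-protein subunit, was lower at 3047, 2346, 2424 and 2652 CPM against 7345, 7141, 7224 and 7719, the 1 called gene of 15 in its list. Single calls in lists of this size describe the gene and say little about the list.

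Surface and adhesion genes went both ways. Of 22 measured members, Folr1, Tspan8 and the tetraspanin Cd9 were higher and Ncam1, Ncam2 and Ttr lower, and the list median was 0.39. Over all genes, 0.58% were higher and 1.4% lower at 2-fold in each library. Immediate early genes, which dissociation can induce, were higher than in alpha cells as a group. Past 2-fold were 4 of 16 (Fos, Jun, Atf3 and Btg2), with 0 lower and a median of 0.82. Jun was at 1118, 954, 1159 and 1095 CPM against 487, 228, 243 and 270, and Fos at 901, 354, 771 and 400 against 349, 153, 193 and 161. Within polypeptide cells Fos was highest in libraries 1 and 3, as it was in alpha cells. Against delta cells the median of this list was -0.32, or -0.05 with hormones left out of the total. There 1 of 16 genes was higher (Klf4) and 1 lower (Fos), where 0.997% and 2.99% of all genes were. The median gene had log2 ratios of -0.25 to -0.30 against delta cells. The list median thus lay above the median gene against alpha cells and close to it against delta cells. All cells went through the same dissociation, and its part in these ratios was not tested.

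Xbp1 acts in the unfolded protein response. Of 30 measured genes of ER folding and this response 0 passed 2-fold in either direction, where 0.58% of all genes were higher and 1.4% lower. By any fold in every library 7 were higher and 12 lower, where 10.7% and 48.2% of all genes were. The list median was -0.06, or 0.17 with hormones left out of the total, so that its sign depends on the scaling. The chaperone Hspa5 was at 845, 780, 760 and 909 CPM against 912, 912, 814 and 931, and the co-chaperone Dnajb9 at 192, 203, 176 and 238 against 102, 128, 96.4 and 135. Of 10 measured targets of the PERK and ATF4 branch 0 passed 2-fold, with a median of 0.36. Of 12 measured genes of antigen presentation and the interferon response 0 passed, with a median of 0.19.

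Other peptide hormones were few. Of the 8 genes of the neuropeptide Y family list besides Ppy, Pyy alone passed the filter against alpha cells. Of 4 measured members, Iapp (amylin) was higher than in alpha cells, at 4290, 8515, 14148 and 7387 CPM against 1374, 2879, 5041 and 2069, and Edn3 (endothelin 3) was lower, at 19.1 to 30.1 against 90.5 to 114. Over all genes, 0.58% were higher and 1.4% lower at 2-fold in each library. In library 3, the highest for Iapp, 53.4% of the Iapp UMIs came from 1 cell. Iapp was highest in the 28 cells with Sst at 1% or more (22193 CPM) and was at 6745 CPM in the 180 cells with both Gcg and Sst under 1%. The median polypeptide cell held 0.244% of its UMIs as Iapp and the median endothelial cell 0.0481%. Ghrl (ghrelin) had 0 UMIs among 5583660 in the polypeptide cells.

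Across 5452 genes without hormones, the summed profile of polypeptide cells was closest to alpha cells, with Spearman's rho of 0.837, 0.871, 0.846 and 0.875 in libraries 1 to 4. Delta cells gave 0.804, 0.838, 0.834 and 0.821, and beta cells 0.752, 0.749, 0.800 and 0.746. Alpha and delta cells were less alike (0.745 to 0.758) than polypeptide cells were to either. The alpha rule held Sst and the delta rule Gcg under 1%, while polypeptide cells could hold either below Ppy. The part of polypeptide cells with Gcg or Sst in these correlations was not tested. These are correlations across genes, which are not independent replicates, and classes with more cells have less counting noise.

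Compared with delta cells, 55 of 5518 genes (0.997%) were at least 2-fold higher and 165 (2.99%) lower in each library. Among the highest were Fgb (median log2 ratio 5.59), the glucuronosyltransferase Ugt2b34 (4.16), the thymosin Tmsb15b2 (4.15) and the secreted ligand Wnt4 (3.82). Wnt4 was at 308, 256, 349 and 303 CPM against 30.6, 8.04, 16.3 and 4.80 in delta cells. Tmsb15b2 has a near-identical copy, and its counts are uncertain. Lowest were the opioid precursor Pdyn (-3.81), Shisal2b (-3.68), the phosphatase Ptprz1 (-3.64), the surface protein Cd24a (-3.50), the pentraxin Nptx2 (-3.39) and the growth-cone protein Gap43 (-3.34). Hhex, the homeobox factor of delta cells, was at 18.1, 24.5, 39.1 and 18.5 CPM against 312, 302, 334 and 301. Polypeptide cells thus held the delta factor Hhex at under 40 CPM in each library.

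Tspan8 and Pyy were shared with delta cells more than with any other class. Tspan8 was at 195, 360, 212 and 395 CPM and Pyy at 44791, 40810, 43980 and 34465 CPM in delta cells. Pyy was at least 2-fold above delta cells in each library (median log2 ratio 1.48), and Tspan8 was not (1.15). The ER folding list had 0 of 32 genes past 2-fold in either direction against delta cells, but 28 of the 32 were lower in every library by any fold and 0 higher. Of all genes, 55.6% were lower and 7.47% higher by that rule. Its median was -0.75, or -0.49 with hormones left out of the total.

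Compared with beta cells (Ins2 at 5% or more, Gcg, Sst and Ppy each under 1%), 125 of 4929 genes (2.54%) were at least 2-fold higher and 107 (2.17%) lower in each library. With hormones left out of the total these became 158 and 200, the 8 genes holding 41.0% to 58.0% of beta-cell UMIs. The highest were Pyy (7.79), Tspan8 (5.47), Fgb (4.48), the retinol carrier Rbp4 (3.91), Folr1 (3.91) and the calcium-binding Calb1 (3.89). The lowest were Ins1 (-5.36), the beta-cell factor Mafa (-4.88), the phosphatase G6pc2 (-4.70), Npy (-4.26), the prolactin receptor Prlr (-4.05) and Pcsk1 (-3.96). Ins1 shares much of its sequence with Ins2, and reads between them may be split. Npy, of the same peptide family as Ppy and Pyy, was at 7.24, 3.64, 17.3 and 7.52 CPM in polypeptide cells and at 996, 133, 944 and 125 in beta cells. Of 15 measured immediate early genes 11 were higher than in beta cells, and of 12 measured PERK and ATF4 targets 4 were lower (Atf5, Trib3, Nupr1 and Cebpb).

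Few genes set polypeptide cells apart from all 3 other hormone classes. Apart from Ppy, 0 genes were 4-fold above alpha, delta and beta cells in each library. At 2-fold, 6 genes were above all 3 (Calb1, Cd9, Fgb, Folr1, Klf2 and Pyy) and 1 was below all 3 (Vgf). Calb1, which buffers calcium, was at 103, 215, 184 and 181 CPM against 26.5, 68.2, 49.3 and 60.1 in alpha, 7.75, 35.6, 15.7 and 36.6 in delta and 3.12, 2.51, 3.83 and 2.29 in beta cells. Klf2 was at 77.8, 23.2, 55.4 and 71.1 CPM and at most at 10.7 CPM in any other class and library. Depp1, high against alpha cells, was at 246, 135, 287 and 104 CPM in delta cells.

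**Figure D4:**
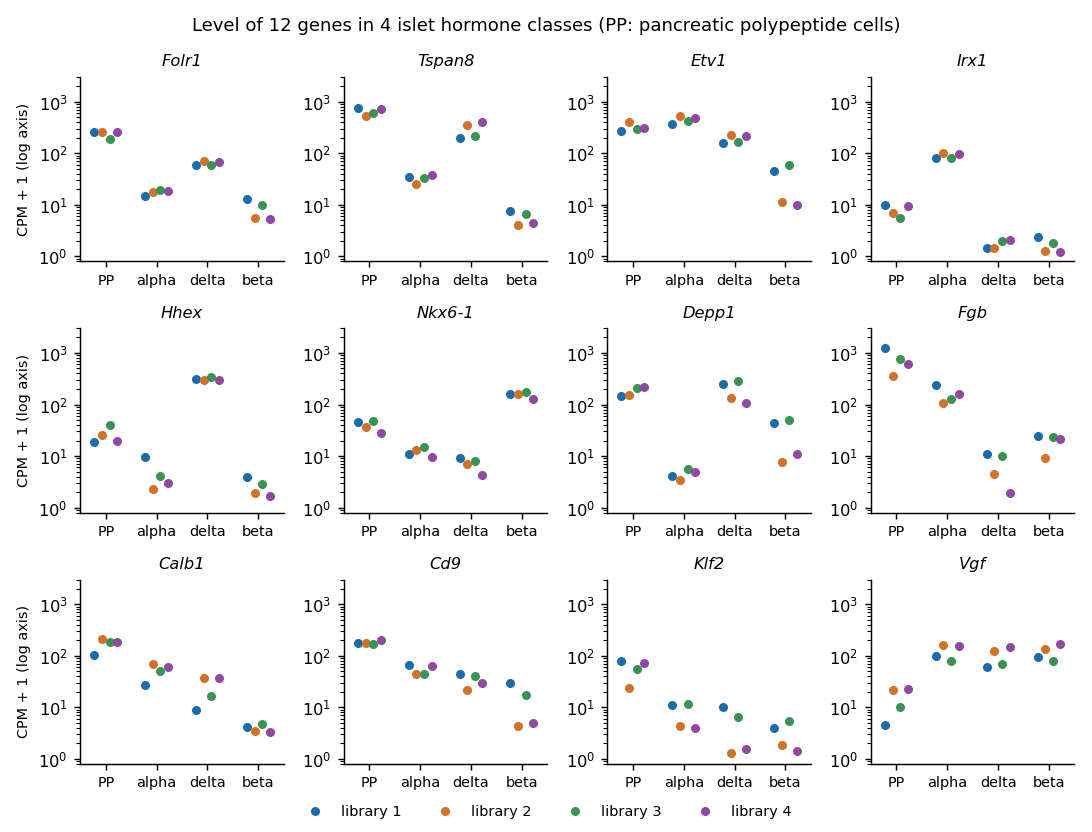
Level (CPM plus 1, log axis) of 12 genes in pancreatic polypeptide, alpha, delta and beta cells, 1 point per library. Folr1, Fgb and Calb1 are highest and Vgf lowest in polypeptide cells, Etv1 is at a similar level in alpha cells, and Irx1 and Hhex are far below the class in which each is highest.

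Alpha-cell genes were at higher levels in the 44 polypeptide cells that also held Gcg at 1% or more. Summed over libraries, Irx1 was at 32.2 CPM in these cells (exact Poisson 95% interval 22.0 to 45.4) and at 1.31 CPM (0.480 to 2.85) in the 199 others. Irx2 was at 47.3 and 18.3 CPM, and Ttr at 2095 and 622 CPM. Genes that were higher in polypeptide than in alpha cells went both ways. Folr1 was at 123 CPM where Gcg was present against 270 where it was not, and Depp1 at 80.5 against 206 CPM. Fgb was at 1261 CPM (1192 to 1333) against 461 CPM (441 to 481). By library Fgb was at 2010, 751, 738 and 1800 CPM against 1092, 259, 752 and 300, so it was not higher in library 3. Depp1 in library 1 was at 140 against 146 CPM. The 2 sets had nearly the same depth, with median UMI counts of 20020.5 and 21948. The cells were split by Gcg, a hormone that alpha cells were chosen by, so these values are a description.

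Alpha cells with Ppy had higher levels of Tspan8, Folr1 and Fgb. In the 135 alpha cells with Ppy at 1% or more, Tspan8 was at 161 CPM (145 to 179) against 19.2 (17.5 to 21.1) in the 1862 others, Folr1 at 51.3 against 13.4 CPM and Fgb at 484 against 112 CPM. Irx1 was at 46.7 against 96.5 CPM, and Ttr at 3600 against 5147 CPM. Over the 4 sets Irx1 was successively higher and Folr1 successively lower from polypeptide cells without Gcg to alpha cells without Ppy. Median UMI counts were 14119 and 11677.5 in alpha cells with and without Ppy. The alpha cells were split by Ppy, the hormone that polypeptide cells were chosen by, so the values and their order are a description. The part of doublets was not tested.

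**Figure D5:**
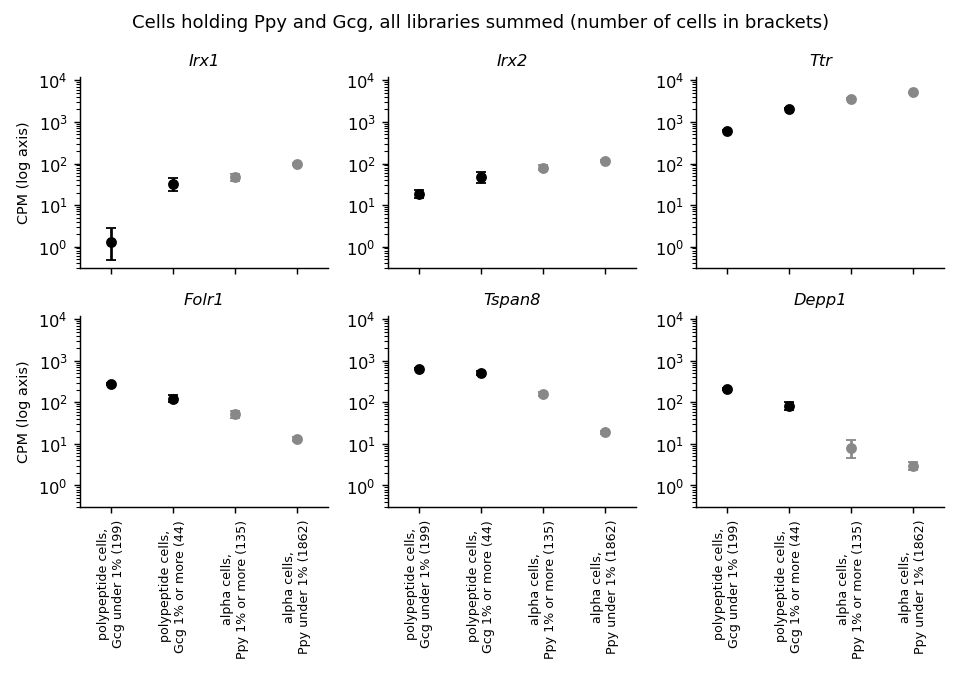
CPM (log axis) of 6 genes summed over libraries in polypeptide cells without and with Gcg at 1% of UMIs (black) and in alpha cells with and without Ppy at 1% (grey), with exact Poisson 95% intervals that cover counting error only. Irx1 climbs from 1.31 to 96.5 CPM and Folr1 falls from 270 to 13.4 CPM along the 4 sets. The sets were split by hormones that the rule uses, so this order is a description.

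Polypeptide cells with somatostatin held more of 2 delta-cell genes. In the 28 cells with Sst at 1% or more, Hhex was at 124 CPM (103 to 148) against 4.09 (2.34 to 6.64) in the 180 cells with both Gcg and Sst under 1%, and Rbp4 at 3410 against 507 CPM. Their median UMI count was 33425 against 21348, so these cells were also deeper. The 167 delta cells with Ppy at 1% or more had Hhex at 311 CPM against 314 in the 1120 others. Folr1 was at 59.8 against 63.7 CPM and Pyy at 60015 against 38343 CPM. Both splits used hormones by which the classes were chosen, so these values are a description.

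At 100 CPM or more in at least 1 library, polypeptide cells had 1198 genes, of which 12 (1.00%) had a 4-fold range or more between libraries. Alpha cells had 15 of 1338 (1.12%), delta cells 24 of 1550 (1.55%) and beta cells 32 of 1167 (2.74%). Markers of other cell classes were among the widest (Igkc, Jchain, Ins1, Mzb1 and Spp1) and are left out of the genes described next. Single cells of library 3 held most of the UMIs of several genes there. Of its Ighm UMIs 99.95% came from 1 cell, of Lcn2 98.2%, of Cd74 98.0% and of Crybb3 82.0%. Without library 3 the count was 4, and without library 1 to 7. Genes spread over more cells were the cell-cycle inhibitor Cdkn1a (18.1, 48.2, 115 and 56.7 CPM), the Ras-related Rasd1 (241, 48.6, 115 and 61.9), the isoprenoid enzyme Idi1 (127, 23.6, 86.3 and 30.6) and the orphan receptor Nr4a1 (47.4 to 194). Idi1 in alpha cells was at 263, 92.5, 234 and 90.7 CPM, with the same libraries high. Gm26917 and C2cd4b had 64.5% and 54.2% of the UMIs of their highest library in 1 cell, for Gm26917 in library 4 and for C2cd4b in library 3.

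Markers of other cell types were low in most libraries. Summed over each list, acinar markers were at 20.8 to 74.2 CPM (9 of 10 genes in the file, Cel at 0), endothelial markers at 11.8 to 136 CPM, fibroblast markers at 3.47 to 12.7 CPM (Col3a1, Lum and Pdgfra at 0), macrophage markers at 9.05 to 94.8 CPM and T-cell markers at 0 to 1.73 CPM (Cd3d, Cd3g and Cd8a at 0). Ductal markers, which include Spp1, were at 972 to 3682 CPM, with all 7 genes found. Plasma-cell markers were at 3.47 to 23.5 CPM in 3 libraries and at 20894 CPM in library 3, where 1 cell held 31.5% of its UMIs in these markers. Proliferation genes were at 0 to 3.62 CPM. With cells left out where another hormone of the rule reached 5% or another cell type's markers reached 1%, the counts against alpha cells were 31 higher and 96 lower genes.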

How the data were processed

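Islet cells of 4 samples were measured by droplet single-cell RNA-seq. The deposited matrix holds UMI counts for 32285 genes and 19987 barcodes; it was made with Cell Ranger 6.1.2 on mm10, per the submitters' processing notes, and the sources used here do not name its annotation. Barcodes carry a library number, and 0 libraries matched a sample label, so libraries were treated neither as replicates nor as members of a genotype group, and no test was run. Libraries held 82963911, 178396311, 85266513 and 110800927 UMIs.

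Cells with at least 500 genes and at most 20% mitochondrial UMIs were kept and classed by hormone share. UMIs were summed per class and library, scaled to CPM and compared within each library as log2 with a pseudocount of 10 CPM. Genes needed a mean of 20 CPM over both classes, and were called at 2-fold in all 4 libraries, with the 4 hormones of the rule left out. Intervals are exact Poisson or Clopper-Pearson at 95% and cover counting error only; a limit beside a count of 0 is 3 counts of the total. The text names supplied markers, Xbp1, the 12 called genes with the largest median ratio to alpha cells in each direction (6 for delta and beta cells), up to 4 members of each of 17 lists with the largest ratios in 1 direction over all libraries and at least 50 UMIs in a class, and the 10 genes with the widest range between libraries that mark no other cell class. Some genes that this rule names are not reported here. Other genes given as examples were chosen after their values were seen. Members, markers and lists were chosen with earlier results of these data known. Coordinates come from GENCODE M21, which held 99.6% of the gene identifiers. In simulated counts for the alpha comparison (5839 genes), genes doubled in polypeptide cells had a median log2 ratio of 0.869 and 0 of 5655 unchanged genes were called. Both simulated classes were Poisson draws around the alpha profile. They held no variation between cells and no hormone shift, so the count of 0 checks the calculation and gives no error rate for the real cells. Python 3.11.15 was used with numpy 2.4.6, scipy 1.17.1, pandas 2.3.3 and matplotlib 3.10.9.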

Additional observations from a re-analysis of the deposited data

How the results depend on the processing

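Of 1726 values recomputed under other settings, 1537 stayed near the main value, 185 moved and 4 reversed. Some values that stayed near the main value nevertheless changed sign. With library 2 left out, the antigen presentation and interferon median against alpha cells was -0.039, against 0.19 with all libraries. The median of delta and beta factors was then 0.026, against -0.098. The cause of the moves was not tested. Classes were compared within each library, but no comparison of genotypes was possible because the library numbers match no sample label.

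With cells holding a second hormone at 1% left out, 3 log2 ratios to alpha cells reversed, those of Cd24a (-0.30), Dpp4 (-0.36) and Ptprz1 (-0.0044). The shares of polypeptide cells became 0.873% in library 2 and 1.19% in library 4. List medians against alpha cells became -0.57 for pan-endocrine factors, -2.04 for alpha factors, -1.15 for glucose and amino acid handling, -0.19 for ER folding and -0.52 for G proteins.

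Leaving hormone genes out of the totals and filtering anew, 56 genes were higher than in alpha cells, 98 higher than in delta cells and 200 lower than in beta cells, and 20 had a 4-fold range between libraries. List medians became -0.23 for pan-endocrine factors, 0.31 for delta and beta factors, 0.15 for processing, -0.10 for granule proteins, -0.16 for ion channels, -0.77 for glucose and amino acid handling, 0.19 for ER folding and -0.16 for G proteins.

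With a pseudocount of 1 CPM, 121 genes were lower than in alpha cells, 1 gene besides Ppy was 4-fold above each other hormone class, and the alpha-factor median was -2.11. With CPM averaged over single cells, the medians were -0.58 for receptors and -0.35 for G proteins. Without a filter on low values, they were -0.0242 for receptors, -0.21 for ion channels, -0.19 for glucose and amino acid handling, 0.13 for surface proteins and -0.14 for enteroendocrine genes.

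One setting, chosen after seeing the data, left out cells with transcripts of another cell type. The shares of polypeptide cells were then 1.46% in library 2 and 1.53% in library 4. Cells with a second hormone made up 40.3%, 8.57% and 22.4% in libraries 2, 3 and 4. List medians were -1.97 for alpha factors, 0.0446 for delta and beta factors and -1.12 for glucose and amino acid handling, and Prlr reversed to -0.0505. A cell filter of 2500 genes and 5% mitochondrial UMIs, also chosen after seeing the data, is given beside the alpha comparison.

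With each library left out in turn, the genes with a 4-fold range between libraries numbered 4 to 12, those higher than in alpha cells 32 to 45, and those lower 88 to 97. Library 1 held only 23 polypeptide cells, so its levels are the least precise.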
